A study of Leucoraja erinaceus with 4 samples.

Results

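The messenger RNA of the ampullary canals was set against that of the liver in 1 adult little skate (Leucoraja erinacea), a cartilaginous fish that detects weak electric fields. The comparison holds 2 of the 4 libraries of the study, 1 from each tissue, and was chosen by tissue label. Both tissues came from an adult animal with no treatment or genetic change in the labels, and the liver sample weighed 4 mg. The other 2 libraries, from ampullary receptor cells and from body skin free of electroreceptors, are used below only to show where canal or liver transcripts were also found. Of 186064 assembled genes in the files, 26637 had 10 or more reads in canals or liver, and all differences below are over these. An assembled gene is a group of transcript sequences that the assembly put under 1 identifier. It can be a whole transcript, a fragment or a near copy of another one, so numbers of assembled genes are not numbers of genes.

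Ampullary canals are tubes of epithelium, filled with a conductive gel, that run from pores in the skin to the electroreceptor organs. They carry the outside potential to the sensory cells and are themselves supporting tissue. The liver secretes the bulk of the plasma proteins, makes bile and lipoproteins, and in cartilaginous fishes also stores oil and produces urea. A secretory organ of this kind is known for devoting much of its messenger RNA to few transcripts.

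The identifiers in the files are assembly numbers, and 0 of them matched the 23250 genes of the RefSeq gene table (assembly Leri_hhj_1). The liver and canal labels could therefore not be set against marker genes such as albumin or keratins, and transcripts are described by abundance, length and tissue distribution. With 1 library per tissue and 1 animal, no difference has a replicate check and no p-value was computed. Intervals are exact 95% intervals that cover the counting of independent reads only. Reads that are PCR copies are not independent, and the variation from animal to animal and from one preparation to another was not measured. In whole tissues, fewer cells of a type and less RNA per cell cannot be told apart.

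Both libraries were of similar depth, with 12303113 reads in canals and 11071249 in liver. Reads were found on similar numbers of assembled genes, 65961 in canals and 67936 in liver. Above that low bar, canals had more in raw reads. In canals 22486 assembled genes had 10 or more reads, 10098 had 100 or more and 1735 had 1000 or more. In liver these numbers were 19571, 7357 and 986. Thinned to the liver total, canals would be expected to keep 21750 with 10 or more reads and 9645 with 100 or more. Thinning evens the raw totals only. With TMM scaling (below), the effective library sizes were 12429627 for canals and 6682110 for liver. A given number of reads then means a higher level in liver, and numbers above an equal TMM level were not counted. The larger canal numbers therefore do not show that more transcripts were present in canals. At the top the order turned, with 6 assembled genes of 100000 or more reads in canals and 16 in liver.

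Most reads fell on assembled genes with at least 1 read in both tissues, which does not mean similar levels. With TMM scaling (below), those within 2-fold held 34.9% of the canal reads and 19.2% of the liver reads. Reads from both tissues fell on 36444 assembled genes, which held 98.1% of the canal reads and 97.0% of the liver reads. The 15420 with 10 or more reads in each tissue held 93.3% of the canal reads and 87.7% of the liver reads. A further 29517 had reads in canals only and 31492 in liver only, most of them at 1 to 9 reads (27257 and 29663), with 1.86% of all reads in canals and 3.02% in liver.

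Differences are given as log2 of canals minus log2 of liver, each as reads per 1000000 (CPM) plus 0.5. With library sizes scaled by TMM factors, which were 1.01 for canals and 0.604 for liver, 3660 assembled genes were at least 4-fold higher in canals (13.7% of those compared) and 4205 at least 4-fold higher in liver (15.8%). Differences of at least 16-fold numbered 899 and 1129, and of at least 256-fold 42 and 182. The liver side therefore grew with the size of the difference, from 53.5% of the differing ones at 4-fold to 55.7% at 16-fold, 64.9% at 64-fold and 81.2% at 256-fold. Within 2-fold lay 11357 assembled genes, 42.6% of the total. The median difference was 0.15 and the middle 50% of values ran from -1.16 to 1.25.

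Which tissue held the majority depended on the scaling at 4-fold and not at 256-fold. Without the pseudocount, TMM factors multiply a fold in favour of liver by 1.67 relative to library totals, and with it the shift is smaller where reads are few. With library totals, 4896 assembled genes were at least 4-fold higher in canals (18.4%) and 2629 at least 4-fold higher in liver (9.87%), and the median difference was 0.78. The majority then lay on the canal side at 4-fold (65.1%) and at 16-fold (60.0%), but on the liver side at 64-fold (52.6%) and at 256-fold (73.6%, 145 against 52). Directions of modest differences below hold for the TMM scaling unless both are given.

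**Figure D1:**
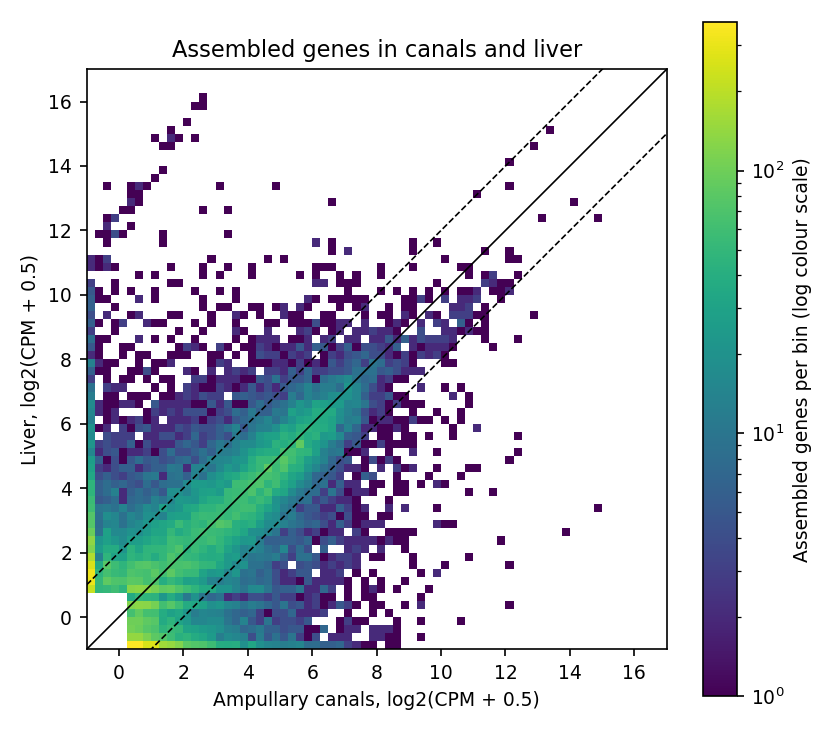
Each square bins assembled genes by log2(CPM + 0.5) in canals (horizontal) and liver (vertical), with TMM scaling and a log colour scale for the number per bin. The solid line marks equal levels and the dashed lines 4-fold, with 4205 assembled genes on or above the upper dashed line and 3660 on or below the lower one, and the most abundant liver transcripts form a separate streak at the upper left.

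**Figure D2:**
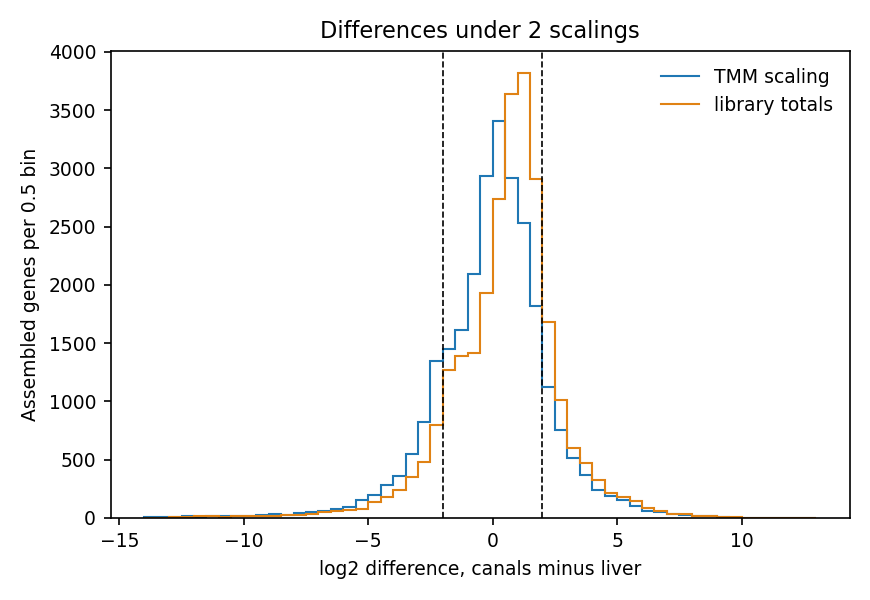
Numbers of assembled genes per 0.5-wide bin of the log2 difference, canals minus liver, with TMM scaling and with library totals. The dashed lines mark 4-fold, and the median lies at 0.15 with TMM and at 0.78 with library totals.

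Liver put far more of its reads on few transcripts. Its 10 most abundant assembled genes took 24.9% of the reads (24.8 to 24.9), against 14.0% (13.99 to 14.03) for the 10 of canals. For the 50 most abundant the shares were 48.2% in liver and 27.9% in canals, and for the 1000 most abundant 77.9% and 64.7%. To reach 50% of the reads took 59 assembled genes in liver and 278 in canals, and to reach 90% took 3824 and 6025. The exponential of the Shannon entropy, which counts how many equally abundant transcripts would give the same evenness, was 864 for liver reads and 2371 for canal reads.

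Per molecule the contrast was larger at the very top and smaller further down. TPM, the deposited share of transcripts corrected for length, put 26.7% on the 10 leading assembled genes of liver and 11.7% on those of canals. For the 50 leading ones it put 41.1% in liver and 32.2% in canals. A total of 116 assembled genes held 50% of liver TPM and 136 held 50% of canal TPM. A single short transcript of 430 bases had 90510 TPM in liver, or 9.05% of the library, from 175859 reads. It is part of the 26.7% above, so the larger contrast among the 10 leading ones leans heavily on it. The leading transcript of canals by TPM had 15801, or 1.58%.

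**Figure D3:**
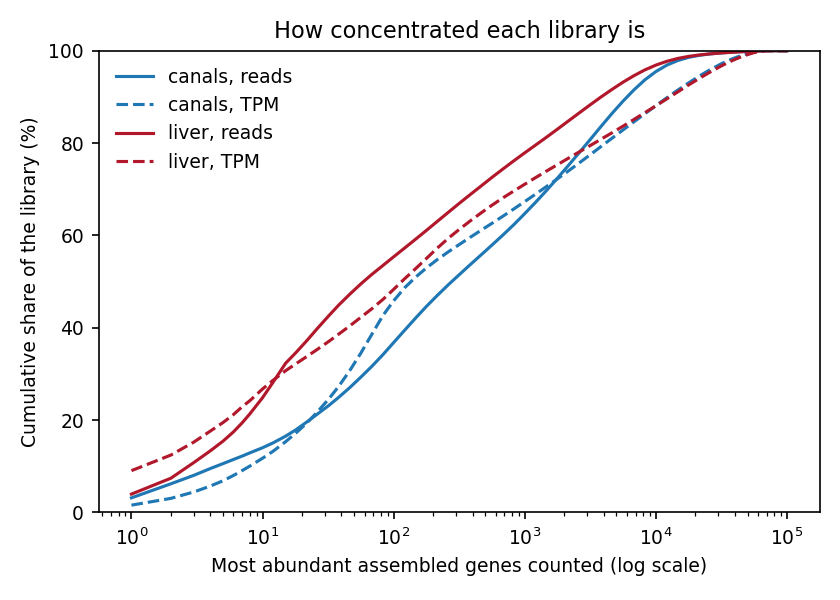
Cumulative share of each library (vertical, percent) held by its most abundant assembled genes (horizontal, log scale), in reads (solid) and in TPM (dashed). The liver read curve reaches 48.2% at 50 assembled genes, where the canal read curve is at 27.9%. The TPM curves are farther apart than the read curves at 10 assembled genes (26.7% and 11.7%) and closer at 50 (41.1% and 32.2%).

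The most abundant liver transcripts were almost missing from canals. Of the 50 leading assembled genes of liver, 41 were at least 256-fold above canals (39 with library totals) and 44 at least 4-fold above. Their median was 63982 reads in liver and 28 in canals. The liver library's most abundant assembled gene (1613 bases) had 439801 reads in liver, 65 in canals, 40 in receptor cells and 57 in skin, a difference of -13.49 (-12.75 with library totals). The third in rank, 14271 bases long, had 378683 reads in liver and 69 in canals, a difference of -13.19. Of the 10 leading liver transcripts, 9 had at most 110 reads in any other library, and the sixth in rank was abundant in every tissue.

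The leading canal transcripts were mostly also present in liver. Only 5 of the 50 leading assembled genes of canals were at least 256-fold above liver (6 with library totals), and 19 were at least 4-fold above (32 with library totals). Their median was 46088 reads in canals and 7764 in liver. The second in rank, 9510 bases long, had 374886 reads in canals, 32690 in liver, 29916 in receptor cells and 30909 in skin, 6.17-fold above liver (6.1 to 6.24). Liver, receptor cells and skin had similar raw numbers of its reads, but not similar levels with TMM. The TMM factors were 0.604 for liver, 1.48 for receptor cells and 1.11 for skin, which puts its level in liver above that in receptor cells and skin. The fourth in rank (2362 bases) had 179847 reads in canals, 5866 in receptor cells, 236 in skin and 40 in liver, 2417-fold above liver (1775 to 3383). The seventh (820 bases) and the ninth (735 bases) had 90593 and 70183 reads in canals and 4182 and 2855 in liver, 11.7-fold and 13.2-fold above. In receptor cells these had 4927 and 4542 reads, and in skin 1000 and 839. With TMM the level of both was higher in liver than in receptor cells, although the raw numbers were lower in liver.

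**Figure D4:**
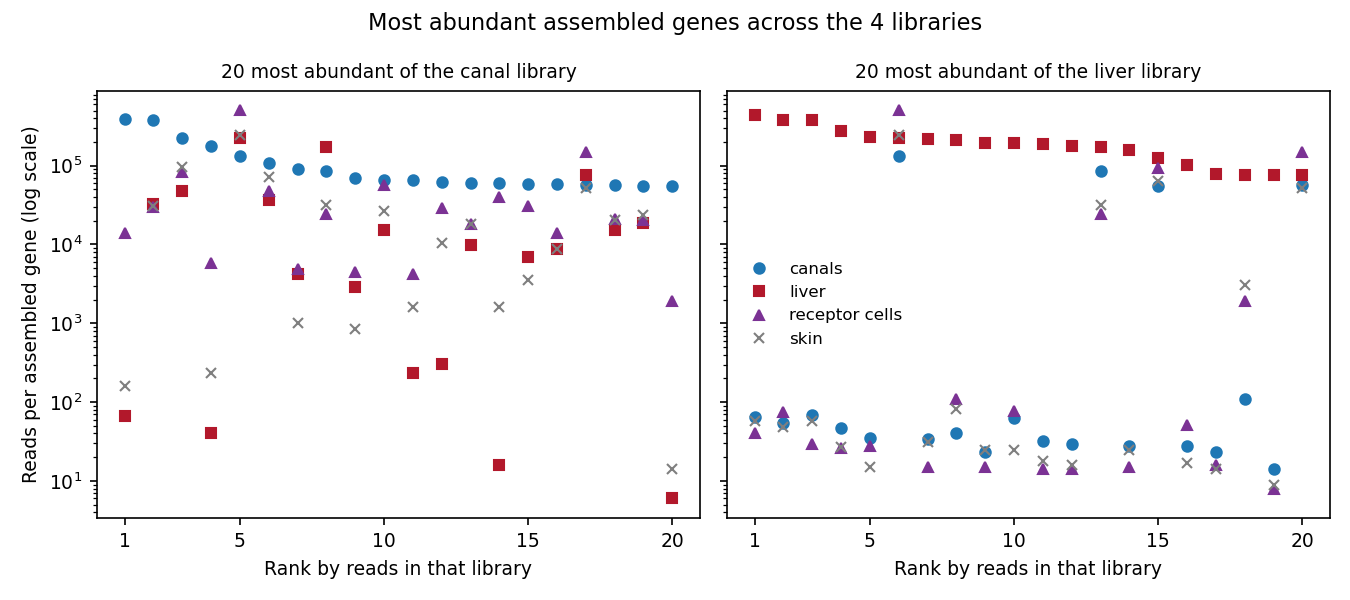
Reads (vertical, log scale) of the 20 most abundant assembled genes of the canal library (left) and of the liver library (right), by rank, in all 4 libraries. In the right panel all 20 have 75948 or more reads in liver and 15 have at most 110 in canals, receptor cells and skin, while in the left panel 14 of the 20 canal transcripts have 1000 or more reads in liver.

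Only 7 assembled genes were among the 50 most abundant of both tissues. The longest of these is the 9510-base transcript above. The one of 3168 bases, the most abundant of receptor cells, had 131677 reads in canals, 221828 in liver, 509841 in receptor cells and 248486 in skin, a difference of -1.65 (-0.90 with library totals). The one of 1009 bases had 85952 reads in canals and 174882 in liver, against 24141 in receptor cells and 31540 in skin. The one of 698 bases had 55012 reads in canals and 125991 in liver, with 94715 in receptor cells and 64313 in skin, a difference of -2.09 (-1.35 with library totals). The remaining ones were a 1729-base transcript, lower in canals at -1.30, and those of 2031 and 5809 bases, higher in canals at 1.35 and 0.66. For these 7 the direction was the same under both scalings, while the size was not.

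The identifiers named here follow a rule on size, the 2 per direction whose counting interval ends farthest from equality among assembled genes with 100 or more reads in either tissue. On the canal side, c80805_g1, first in rank in canals, had 388787 reads in canals and 67 in liver, with 14193 in receptor cells and 158 in skin. Its level was 31279 CPM in canals and 10.03 CPM in liver, a 3120-fold difference (2456 to 4025), and 5222-fold with library totals. It has 2 transcripts, and its abundance-weighted length was 2320 bases in canals and 2608 in liver. The other, c51194_g1 (1257 bases, 1 transcript), had 55627 reads in canals, 6 in liver, 1939 in receptor cells and 14 in skin, a 4984-fold difference (2290 to 13582). Both were detected well above liver and skin in receptor cells, the other sample from the ampullary organ.

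On the liver side, c94606_g1 (2 transcripts, 4682 bases in liver) had 75222 reads in liver and 3 in canals, with 5 in receptor cells and 12 in skin. It was 46641-fold higher in liver, but 3 canal reads leave an interval of 15959 to 226172. Assembled gene c46175_g1 (1830 bases, 1 transcript) had 194736 reads in liver, 23 in canals, 15 in receptor cells and 25 in skin, a 15749-fold difference (10496 to 24845). With library totals these folds were 27864 and 9409. Neither transcript was above 25 reads outside liver.

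The few canal reads of liver transcripts were for most a similar fraction of the liver reads. Among the 41 leading liver transcripts at least 256-fold above canals, with 25550 to 439801 liver reads, the canal library had a median of 1.84 reads per 10000 liver reads, with a middle 50% from 1.51 to 2.60 and a full range from 0.399 to 57.2. These 41 were chosen by their difference from canals, so a low canal fraction is in part fixed by the choice. The same quantity had a median of 1.47 in receptor cells (middle 50% from 0.796 to 5.03) and 1.53 in skin (1.26 to 2.21). The full range was wider there, from 0.3896 to 1429 in receptor cells and from 0.4085 to 395.8 in skin. In the other direction, the 5 leading canal transcripts at least 256-fold above liver had 1.08 to 7.26 liver reads per 10000 canal reads. The liver values are likewise limited by the choice. In receptor cells these 5 had 326 to 6604, with a median of 355 and a middle 50% from 348.6 to 365.1. Whether reads misplaced between libraries have a part in these low counts was not tested, and folds above about 1000 rest on them.

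Differing transcripts took unequal parts of each library. The 3660 higher in canals held 32.7% of the canal reads and 1.27% of the liver reads. The 4205 higher in liver held 64.1% of the liver reads and 2.47% of the canal reads. Within the liver share, the 182 assembled genes at least 256-fold higher held 48.1% of all liver reads and 0.0183% of the canal reads. The 42 at least 256-fold higher in canals held 7.76% of the canal reads. Transcripts within 2-fold held 34.9% of the canal reads and 19.2% of the liver reads. The 4350 that were 2- to 4-fold higher in canals held 23.9% of the canal reads and 5.36% of the liver reads, and 34.2% of canal TPM.

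Much of the TPM in this last band lay on short, abundant transcripts. The median length of its 4350 members was 997 bases. A group of 57 members, with a median length of 682 bases, was among the 100 leading by canal TPM and held 25.2% of canal TPM and 13.1% of the canal reads. Among the 100 assembled genes with the highest TPM in canals, the median length was 738 bases, 72 were under 1000 bases and 93 had a single transcript. They took 45.8% of canal TPM, 15.6% of liver TPM, 18.9% in receptor cells and 23.2% in skin. Beside the 57 that were 2- to 4-fold higher in canals, 23 were at least 4-fold higher and 16 within 2-fold, with a middle 50% of differences from 1.05 to 1.93. With library totals, 33 were 2- to 4-fold and 63 at least 4-fold higher. The 100 leading liver transcripts by TPM spread more widely, with 56 at least 256-fold above canals and 24 at least 2-fold below. Since each list was chosen on its own tissue, a higher level there is part of the choice. Ranking by TPM, which is corrected for length, also favours short transcripts. The 100 leading liver transcripts by TPM had a median length of 1188 bases, 44 were under 1000 bases and 79 had a single transcript. Ranked by reads, the 50 leading transcripts had a median length of 1384 bases in canals and 2142 in liver.

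The liver side was largest among the most abundant transcripts. At a mean of 256 CPM or more over both tissues, 222 of 566 assembled genes were at least 4-fold higher in liver (39.2%) and 90 higher in canals (15.9%). With library totals these were 206 and 149 of the same 566. The classes were cut on TMM levels, where a given CPM takes fewer reads in liver than in canals. Entry to the top class is thus easier for liver reads. Between 16 and 64 CPM the numbers were 625 and 675 of 5194. The median absolute difference was 0.86 at 16 to 64 CPM and 2.70 at 256 CPM or more. Below 1 CPM it was 1.47, but assembled genes enter that class only by reaching the minimum of 10 reads in canals or liver. This choice favours a difference, so the 1.47 cannot show whether differences were larger at low levels.

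Transcripts higher in canals had more reads in receptor cells and skin than those higher in liver. Of the 3660, 75.9% had 10 or more reads in receptor cells and 56.0% in skin, with medians of 57 and 15 reads. Of the 4205, 50.9% had 10 or more reads in receptor cells and 48.1% in skin, with medians of 10 and 8. The sets were also unequally read in their own tissue, with medians of 116 canal reads and 57 liver reads. With TMM these medians were 9.33 and 8.53 CPM. In CPM the medians of the 3660 and the 4205 were 3.155 and 0.5535 in receptor cells, and closer in skin, at 1.152 and 0.6145. Over all 26637 compared, these shares were 78.8% and 71.0%. In liver, 28.2% of the canal-higher transcripts still had 10 or more reads, and in canals 31.7% of the liver-higher ones. As shares of reads, the canal-higher transcripts took 14.3% of the receptor-cell library and 18.0% of the skin library, and the liver-higher ones took 7.28% and 8.04%.

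Transcripts with reads on 1 side only were numerous but of low abundance. In canals, 2260 of the 22486 assembled genes with 10 or more reads had none in liver (10.05%), and they held 1.38% of the canal reads. In liver, 1829 of the 19571 with 10 or more reads had none in canals (9.35%), and they held 2.50% of the liver reads. With 100 or more reads the numbers were 287 of 10098 in canals and 281 of 7357 in liver. With 1000 or more they were 25 of 1735 and 44 of 986. None of the 161 canal transcripts with 10000 or more reads was without a liver read, and 2 of the 108 such liver transcripts were without a canal read.

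The most abundant transcript without a liver read was 3868 bases long and had 5028 reads in canals, 96 in receptor cells and 62 in skin. Taking 0 reads to allow 3, it was at least 901-fold higher in canals (1508-fold with library totals). The next (1245 bases) had 4343 reads in canals, 881 in receptor cells and 2 in skin. On the liver side, the most abundant transcript without a canal read (1579 bases) had 15051 reads in liver and 2 each in receptor cells and skin, at least 9332-fold higher in liver (5575-fold with library totals). The next (2195 bases) had 12374 reads in liver and 1 each in receptor cells and skin.

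The one-sided transcripts of liver and canals differed in where else they were read. Of the 1829, 859 (47.0%) had no read in receptor cells or skin either. Of the 2260 of canals, this held for 412 (18.2%), and 77.04% of the 2260 had at least 1 read in receptor cells and 56.5% in skin. For the 1829 of liver these shares were 44.3% and 39.1%. Both sets lay below all 26637 compared, at 92.8% and 89.1%. Among the one-sided transcripts with 100 or more reads, 136 of 281 in liver and 14 of 287 in canals were free of reads elsewhere. The limit of 3 reads equals 0.241 CPM in canals and 0.449 CPM in liver. With none on the other side, 19 reads in canals but 11 in liver reach 4-fold under TMM, and 19 and 17 with library totals, so 1269 of the 2260 and 1654 of the 1829 were among the 4-fold counts.

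Transcripts higher in liver were shorter as a group. Their median length was 966 bases (middle 50% from 601 to 1687), against 1320 bases (716 to 2265) for those higher in canals and 1286 bases for all compared. Those within 2-fold had a median of 1564 bases. In the class under 300 bases, 14.3% were at least 4-fold higher in canals and 22.7% in liver. The liver share fell with each longer class from 500 bases on, to 20.6% from 500 to under 1000 bases, 14.8% from 1000, 10.8% from 2000, 7.32% from 4000 to under 8000 and 3.38% (5 of 148) at 8000 bases or more. The canal share lay between 13.3% and 14.5% below 8000 bases and was 18.9% (28 of 148) at 8000 or more.

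With library totals the liver share also fell with each longer class from 500 bases on. It was 12.3% under 300 bases, 13.25% from 300 to under 500, 12.1% from 500 to under 1000 and 3.38% at 8000 or more. The canal share went from 16.04% to 27.0%. Short assembled genes also have few reads, with medians of 12 in canals and 5 in liver under 300 bases against 756 and 326 at 8000 or more. With TMM, among those with 100 or more reads in either tissue the median lengths drew together, at 1873 bases on the canal side and 1664 on the liver side. The canal side of the differing ones was then 47.4% under 300 bases (9 against 10), 55.6% from 300 to under 500, 52.0% from 500, 50.6% from 1000, 56.4% from 2000, 65.7% from 4000 to under 8000 and 82.1% (23 against 5) at 8000 or more. The canal side thus held the majority of long transcripts in this better-read subset as well. Under 500 bases, the liver majority seen over all compared with TMM was 10 against 9 in the shortest class and absent in the next. With library totals there was no such liver majority over all compared. The canal side was then 56.7% under 300 bases and 56.9% from 300 to under 500. Averaged over reads, length was 2700 bases in canals and 2878 in liver, and averaged over TPM it was 1263 and 1403. The median over reads went the other way, with 2183 bases in canals and 2076 in liver. The liver mean over reads includes the transcript of 14271 bases, which alone held 3.42% of the liver reads.

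**Figure D5:**
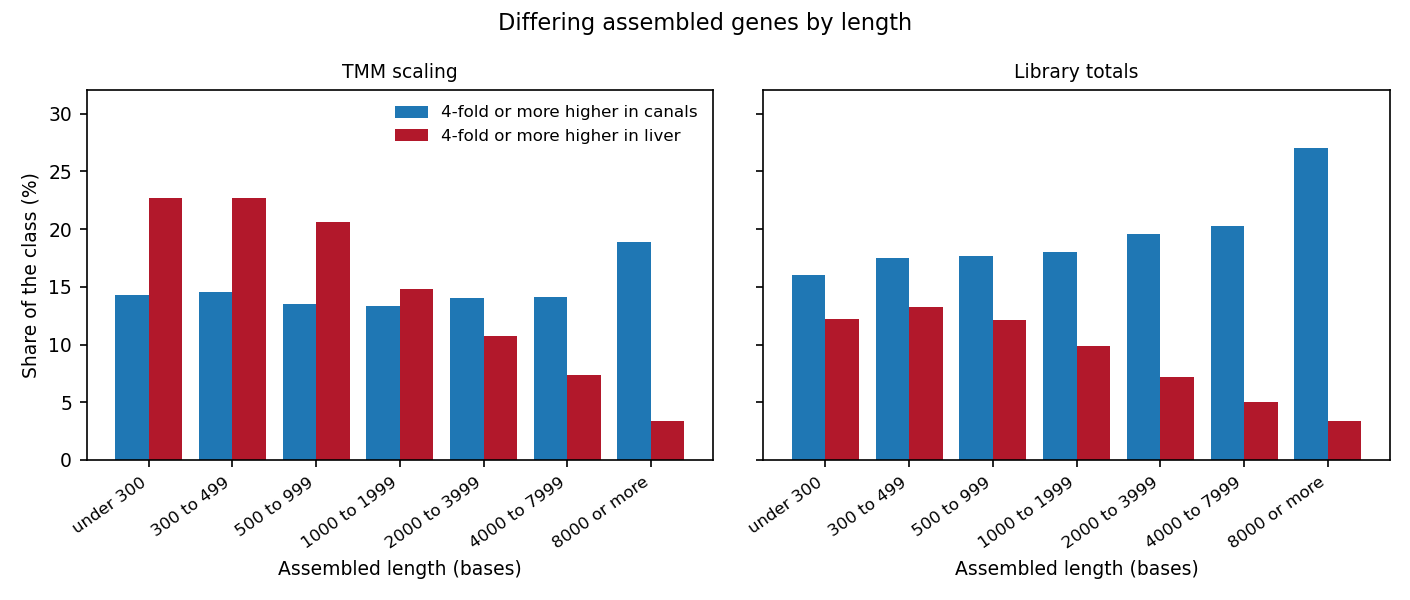
Share of assembled genes (vertical, percent of the length class) at least 4-fold higher in canals or in liver, by assembled length in bases, with TMM scaling (left) and library totals (right). With TMM the liver bars shrink with length, from 22.7% to 3.38%. With library totals they rise from 12.3% to 13.25% in the class from 300 to under 500 bases and then shrink to 3.38%.

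Fragment size differed between the libraries and enters TPM for short transcripts. The mean fragment was 209.7 bases in canals and 224.1 in liver, from the gap between length and effective length. The median log2 ratio of effective length, liver over canals, was -0.25 under 300 bases and -0.09 from 300 to under 500 bases. From 2000 to under 4000 bases it was -0.01. CPM does not use effective length.

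The abundance-weighted length of an assembled gene was mostly alike in the tissues. Proportions of single transcripts were not compared, and a change between transcripts of similar length would not show. Of 3000 assembled genes with 2 or more transcripts and 100 or more reads in each tissue, 2276 (75.9%) had abundance-weighted lengths within a factor of 1.1. At least 1.5-fold longer in canals were 61, and at least 1.5-fold longer in liver 53. The largest shift toward canals was in an assembled gene of 4 transcripts, 3279 bases in canals (4103 reads) and 684 bases in liver (234 reads). In receptor cells it was 3077 bases long (360 reads), as in canals, and in skin 613 bases (38 reads), as in liver. The largest shift toward liver was in one of 3 transcripts, 595 bases in canals (177 reads) and 2480 in liver (4106 reads), with 595 bases in receptor cells and skin. Level and length did not always move together, as 39 of the 61 and 27 of the 53 were within 2-fold in level. The minimum of 100 reads in each tissue itself favours similar levels. The share within 2-fold over all 3000 was not computed, so these numbers do not set the length-shifted ones apart.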

How the data were processed

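Poly(A)-selected stranded libraries were made from 1 µg of total RNA, per the labels' protocols. RSEM 1.1.17 gave the deposited values, per the submitters' processing notes. The aligner, assembler and transcriptome build were not given in the sources used here. Expected counts as deposited, per the file headers, are RSEM estimates of reads and carry no normalization (265 canal values and 200 liver values were over 0.001 away from whole). The deposited TPM is RSEM's length-corrected share per 1000000 transcripts. The deposited FPKM was not used. Length columns are means over transcripts weighted by abundance. Lengths below are means over canals and liver unless a tissue is named.

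Expected counts were rounded. TMM factors came from all 4 libraries, over assembled genes with 10 or more reads in any (edgeR 4.0.16, R 4.3.3). The pseudocount of 0.5 CPM understates differences of low values. Ratio intervals are Clopper-Pearson on both counts, without pseudocount, and shares carry exact binomial intervals (scipy 1.17.1). Functions were tested on simulated data. DESeq2 1.42.0 gave alternative size factors. At most 2 identifiers per direction were named, those whose ratio interval ended farthest from equality among assembled genes with 100 or more reads. Members and rules were chosen with earlier results of these data known.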

Additional observations from a re-analysis of the deposited data

How the results depend on the processing

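No paired analysis was possible because canals and liver hold a single library each. Leaving either out would end the comparison. Of 67 values under the alternatives, 32 stayed within the limits set (within 1.5 times for counts, within a 95% binomial interval for shares and medians). The limit for counts is wide. Against 3660 higher in canals, it takes in 5472 with a pseudocount of 0.1. It also takes in 2483 where the interval end had to lie beyond 4-fold. DESeq2 size factors moved none of the 4 values they bear on. Library totals gave 2629 higher in liver, a canal side of 65.1% and a median difference of 0.78. TMM over canals and liver alone gave 44.2% and 0.071. Totals without the 50 dominant assembled genes gave 51.1% and 0.36. The deposited TPM gave 5535 higher in canals, 59.6% and 0.64. A pseudocount of 0.1 gave 51.3%, and one of 2 gave 1830 and 2030 higher in canals and liver and a median of 0.11. A minimum of 100 reads, which compares fewer assembled genes, gave 1968 and 1632, 54.7% and 0.26, and one-sided numbers of 287 and 281. A minimum of 1 read turned the median to -0.16. It could not change the 4-fold counts or their canal side, since 19 reads in canals or 11 in liver are needed with none on the other side. These values are among the 32 and show no robustness. A length of 500 bases or more gave 47.8%, and the interval end beyond 4-fold, which yields no median, gave 39.5%. The share of the 50 leading transcripts was 32.2% (canals) and 41.1% (liver) in TPM, and 28.2% and 48.7% in sums per assembly cluster. Median lengths on the canal and liver side were 1873 and 1664 with 100 or more reads, 1379 and 1022 with library totals, 921 and 791.5 with TPM, and 1104 and 750.1 as effective lengths, longer on the canal side in all 4. For the remaining shifts the cause was not tested.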

Other observations

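Each of the 3 other tissues can be set beside liver by the same rules. These comparisons share the liver library, so they are not independent. With TMM, canals had 13.7% of the compared assembled genes at least 4-fold higher and 15.8% lower than liver, skin 12.6% and 13.6% (of 26531), and receptor cells 12.5% and 11.96% (of 31182). With library totals the shares higher and lower were 18.4% and 9.87% for canals, 18.8% and 8.58% for skin, and 25.8% and 6.45% for receptor cells. The majority thus changed side with the scaling for canals and skin. For receptor cells it lay on the side higher than liver under both scalings, narrowly so with TMM. With TMM, the share within 2-fold of liver was 42.6% for canals, 48.4% for skin and 46.9% for receptor cells. The transcripts higher in liver held 64.1%, 63.0% and 65.1% of the liver reads in the 3 comparisons, in that order, and those higher in the other tissue held 32.7%, 35.1% and 24.8% of its own reads.

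Identifiers that share the part before "_g" form 1 assembly cluster. Of 23183 clusters among the 26637 compared assembled genes, 3488 had one at least 4-fold higher in canals, 3939 had one higher in liver, and 144 had both. Most clusters held a single compared assembled gene and could not have both. The number with more than 1 was not counted, so the 144 do not show how often clusters mix directions.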
